A study of Mus musculus with 26 samples.

Results

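The regions described here are the 1028 H3K4me3 peaks of Ebf1-null progenitors that lie inside protein-coding genes, away from the gene ends, and that no Early-B peak overlaps. They were chosen by the measured values themselves: a pileup (the authors' read coverage signal) of at least 15 in the progenitor list, no shared base with any Early-B peak, at least 1 base within the span of a protein-coding gene, and a distance of more than 1 kb from both ends of every protein-coding gene. They are 1028 of the 31414 progenitor peaks and of the 79468 peaks of both lists together. Of the 6024 progenitor peaks at that pileup inside coding genes, 17.1% met no Early-B peak, and that share describes the choice only. Over the whole progenitor list 22.8% of peaks met no Early-B peak, and among all 22443 with a pileup of 15 or more the share was 9.53%. The other progenitor-only peaks at that pileup were 336 at coding gene ends and 775 outside coding genes.

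The study set mouse Early-B cells against the Ebf1-/- progenitors from which they were made. Early-B cells carry the same deletion and express EBF1 again from the MigR1-EBF1.ER vector, and were grown for 2 days on OP9 stroma with the cytokines IL-7, FLT3-L and SCF, with 4-O-hydroxytamoxifen switching the fusion protein on. The sources used here do not say how the progenitors were cultured or how many animals or clones stand behind either group. Of the 26 samples in the series, the labels list 2 H3K4me3 immunoprecipitates and 2 input DNA samples per group, and 1 peak list per group was analysed. With 1 list per group there is no replicate, so no value below has an error between samples and no difference was tested. Read depth is unknown, and intervals given for shares cover counting of peaks only. As a check of the labels, a gene was counted as marked by a list that had a peak no farther than 1 kb from either of its ends. Over all coding genes, 5.75% were marked by the Early-B list alone, 2.34% by the progenitor list alone and 53.5% by both. Only some of the 15 gene lists used below are given here. Of 36 B-lineage genes, 12 were marked by the Early-B list alone, 0 by the progenitor list alone and 24 by both. Of 28 stem and multipotent progenitor genes, 0 were marked by the Early-B list alone, 4 by the progenitor list alone and 20 by both. Of 24 stromal and mesenchymal genes, 11 were marked by the Early-B list alone, 1 by the progenitor list alone and 8 by both, and Early-B cells were grown on OP9 stroma. The part of stromal cells in the lists was not tested.

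Trimethylation of lysine 4 on histone H3 (H3K4me3) is laid down by the SET1 and MLL methyltransferases, mostly around transcription start sites, and is densest over CpG islands. Inside a gene the mark is found at internal start sites, at starts of non-coding or antisense transcripts, at unmethylated CpG islands and, at lower levels, at active enhancers. EBF1 is a DNA-binding factor that opens chromatin and activates genes of the B cell programme.

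The members that could be tied to an annotated transcript start are shown as sequence first. RefSeq starts were given for coding and long non-coding genes on all chromosomes but 18, and 38 of the 1002 members elsewhere held at least 1 of them. The following windows are those of the 5 such members with the highest −log10 p. Each covers 250 bases before and 50 bases from the start, reads 5′ to 3′ on the gene's strand (RefSeq, GRCm38.p6, the assembly of mm10), and has every CpG dinucleotide in capitals.
Cpeb1: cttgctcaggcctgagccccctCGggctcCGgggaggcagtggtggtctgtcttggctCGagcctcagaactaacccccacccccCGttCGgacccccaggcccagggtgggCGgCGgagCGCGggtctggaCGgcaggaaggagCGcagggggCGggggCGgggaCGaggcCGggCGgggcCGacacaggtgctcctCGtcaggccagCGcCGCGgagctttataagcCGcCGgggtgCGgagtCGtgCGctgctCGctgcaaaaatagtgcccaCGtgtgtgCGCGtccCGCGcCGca
Acp5: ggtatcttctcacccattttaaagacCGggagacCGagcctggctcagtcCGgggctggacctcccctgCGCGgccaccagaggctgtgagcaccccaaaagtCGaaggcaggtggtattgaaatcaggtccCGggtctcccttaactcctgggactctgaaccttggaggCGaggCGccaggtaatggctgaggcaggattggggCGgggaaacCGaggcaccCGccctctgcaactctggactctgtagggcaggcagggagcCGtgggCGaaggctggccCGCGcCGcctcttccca
Mlxipl: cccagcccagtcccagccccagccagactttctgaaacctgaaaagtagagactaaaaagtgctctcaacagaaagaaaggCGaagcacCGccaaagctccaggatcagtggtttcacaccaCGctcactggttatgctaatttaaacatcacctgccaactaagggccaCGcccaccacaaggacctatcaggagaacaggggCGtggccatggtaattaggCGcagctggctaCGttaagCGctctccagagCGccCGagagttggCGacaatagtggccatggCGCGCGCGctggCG
Gm52563: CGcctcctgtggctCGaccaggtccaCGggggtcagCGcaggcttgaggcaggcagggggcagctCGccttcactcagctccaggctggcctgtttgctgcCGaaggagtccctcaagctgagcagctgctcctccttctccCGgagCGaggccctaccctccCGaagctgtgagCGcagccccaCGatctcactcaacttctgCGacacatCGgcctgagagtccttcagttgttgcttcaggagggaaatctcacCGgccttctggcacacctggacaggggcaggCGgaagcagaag
Tlcd3b: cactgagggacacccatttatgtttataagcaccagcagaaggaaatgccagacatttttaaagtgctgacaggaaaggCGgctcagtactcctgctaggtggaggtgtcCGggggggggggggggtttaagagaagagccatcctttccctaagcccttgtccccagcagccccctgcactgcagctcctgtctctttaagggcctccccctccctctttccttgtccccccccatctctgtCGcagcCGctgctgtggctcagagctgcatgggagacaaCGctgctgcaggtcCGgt
The Cpeb1 window (chr7:81454709-81455008, minus strand) holds 33 CpG, the Acp5 window (chr9:22131816-22132115, minus) 17, the Mlxipl window (chr5:135106641-135106940, plus) 16, the Gm52563 window (chr2:130635192-130635491, plus) 15 and the Tlcd3b window (chr7:126823053-126823352, plus) 6. Cpeb1, which encodes an RNA-binding regulator of poly(A) tails, had the strongest such member. Its peak lay 2920 bp inside the gene's 5′ end, was 865 bp wide and had a pileup of 30.4, a fold enrichment of 4.06 and a −log10 p of 11.8, and the nearest Early-B peak was 7334 bp away. At Acp5, the tartrate-resistant acid phosphatase of osteoclasts, the pileup was 25.1 and the −log10 p 8.65. At Mlxipl, the carbohydrate-responsive factor ChREBP, they were 25.1 and 8.52, and an Early-B peak lay 459 bp away. Gm52563 is a long non-coding RNA gene that starts inside Lzts3, where the member had a pileup of 25.7 and a −log10 p of 8.45. Tlcd3b had a pileup of 24.5 and a −log10 p of 7.60.

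Most members held no annotated start. Of the 1002 members, 38 (3.79%, exact binomial 95% interval 2.70 to 5.17%) held one, against 128 of 3987 Early-B-only peaks inside coding genes (3.21%) and 946 of 4854 shared progenitor peaks inside coding genes (19.5%), both at a pileup of 15 or more. In 26 members the start belonged to the host gene itself, as a further start inside the annotated span. These included Axin2, a negative regulator of Wnt signalling (−log10 p 7.36), the guidance ligand Slit2 (3.94), Cntfr, the receptor of ciliary neurotrophic factor (3.82), and the protocadherin Pcdh9 (3.58). The Slit2, Cntfr and Pcdh9 members began 1390, 1209 and 1251 bp from the annotated 5′ end, just past the 1 kb limit of the rule. In 12 members the start was that of a long non-coding gene. The strongest after Gm52563 were 1700039E22Rik in Pax2 (7.20), Gm46286 in Pitpnm3 (5.40), Gm33767 in Tbxas1 (5.22), Gm39241 in Wwp2 (4.64) and Gm15628 in Lcp1 (4.54). Below them came Gm29831 in Zfp663 (3.74), Gm32297 in Shisal2a (3.42), Gm42005 in Coro1c (2.83) and Gm36756 in Ccdc88c (2.68).

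The start windows inside members were CpG-rich. The 45 windows had a median of 15 CpG and a median GC content of 61.7%, against 7 CpG and 53.0% in the 151 windows inside Early-B-only peaks, 18 CpG and 60.0% in the 1255 windows inside shared progenitor peaks, and 7 CpG and 52.7% over all 32851 windows. At least 10 CpG were found in 28 of the 45 (62.2%), against 41.1% for Early-B-only peaks, 70.2% for shared peaks and 43.5% of all windows. Several windows belong to 1 gene, so they are not independent. Within the members the count ran from 0 CpG at Gm13546 in Cytip to 57 at an internal start of the calcium channel gene Cacna1c. Short motifs were searched on both strands. The palindromic core of the EBF motif was in 0 of the 45 windows, against 1.32% for Early-B-only peaks, 1.04% for shared peaks and 0.904% of all windows. The Early-B-only share was 2 of 151 windows, and a set of 45 can hold 0 at shares this low. The RUNX motif TGTGGT was in 10 member windows (22.2%), against 15.9% for Early-B-only peaks, 14.6% for shared peaks and 16.8% of all windows. The E box CAGGTG was in 14 (31.1%), against 20.5, 20.2 and 20.2% in the same order. The 10 RUNX windows include several overlapping windows of 1 gene, Gm32297, so they do not stand for 10 members. The GATA motif AGATAA was in 1 member window (2.22%), against 7.28% for Early-B-only peaks, 6.37% for shared peaks and 11.2% of all windows. The ETS motif CCGGAA was in 3 (6.67%), against 5.3, 20.2 and 14.9% in the same order. A match is only a match of letters in these 300 bases.

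MicroRNA hairpins lay in 5 members (0.486%), and the share in other peaks was not counted. Mir33 is in Srebf2, the sterol regulator gene (member −log10 p 4.85), Mir449a and Mir449b are in Cdc20b (2.92), Mir744 is in Map2k4 (2.70), Mir3075 in Zmiz1 (3.07) and Mir1895 in Cxxc4 (6.90). The mature sequences are printed because the series also sequenced microRNAs. They come from RefSeq (GRCm38.p6), with the seed, bases 2 to 8, in capitals, and no seed is shared among them.
mmu-miR-33-5p: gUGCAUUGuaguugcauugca
mmu-miR-449a-5p: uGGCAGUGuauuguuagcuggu
mmu-miR-744-5p: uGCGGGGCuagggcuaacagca
mmu-miR-3075-3p: aUCCUUGGccuuccuaggugu
mmu-miR-1895: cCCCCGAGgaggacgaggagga
Mir449b is named only. The strongest of these members, at Cxxc4, had a pileup of 23.1 and lay 3252 bp from an Early-B peak. The peak over Mir33 had a pileup of 18.9 and its nearest Early-B peak was 16946 bp away.

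As a group the members were weak peaks. Their pileup ran from 15 to 46.3 with a median of 17.2, and 796 of them (77.4%) were below 20. The median fold enrichment was 2.26, the median −log10 p 3.54 and the median width 829 bp, with a range of 200 to 4169 bp. The authors' q was above 0.05 for 309 members (30.1%), and 27 members reached a −log10 p of 10 and 0 reached 50. Early-B-only peaks inside coding genes numbered 4112 at the same pileup, 46.7% of the 8796 Early-B peaks there. Their medians were a pileup of 22.6, a fold of 3.01 and a width of 1188 bp. Shared progenitor peaks inside coding genes numbered 4996, with medians of 27.2, 3.48 and 1465 bp. The sources used here give no scaling of pileup between the lists, so levels and pileup classes of different lists may not be on 1 scale. Members covered 972 kb, 1.74% of all bases in progenitor peaks.

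At the lower limit, the members just inside were in Sdccag8, Ppp2r5c and Cisd2, at a pileup of exactly 15, and their −log10 p was 2.60, 2.26 and 2.08. Just outside, at 14.99, lay peaks in Arvcf, Gnl2 and Plxnc1, whose −log10 p was 2.65, 2.51 and 2.45. Without a limit on pileup 3876 progenitor-only peaks lay inside coding genes, 36.6% of all progenitor peaks there.

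**Figure D1:**
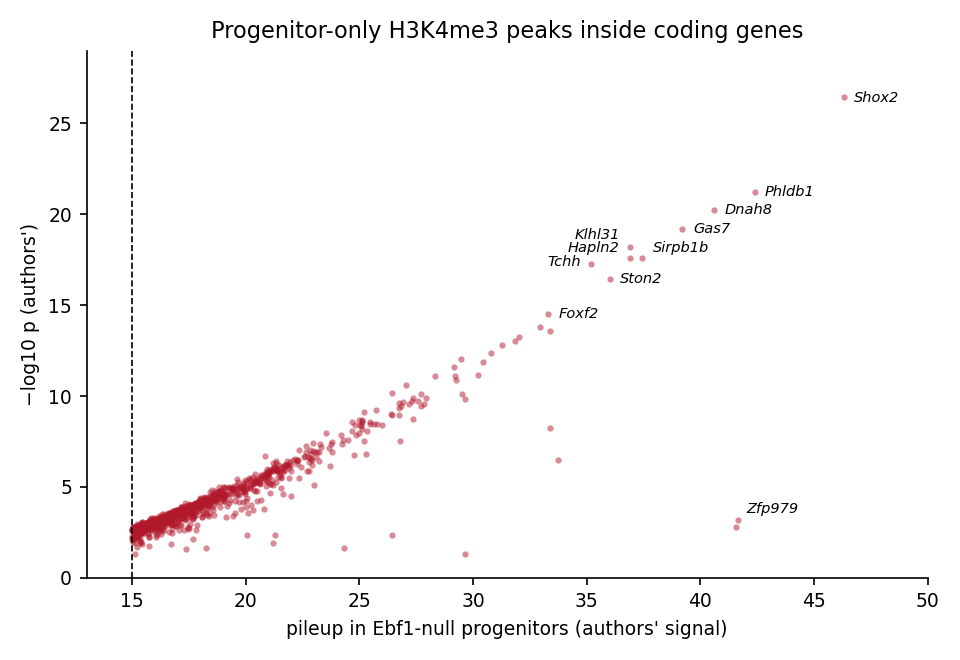
Each point is 1 of the 1028 progenitor-only peaks inside coding genes, with its pileup in the progenitor list on the x axis and its −log10 p on the y axis, both as deposited. The dashed line is the pileup minimum of 15, the 10 peaks with the highest −log10 p are named, and Zfp979 marks a peak with a high pileup of 41.7 but a −log10 p of 3.21.

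The member with the highest −log10 p was in Shox2, a homeobox factor of limb and heart development. It was a 689-bp peak on chromosome 3 from 66973310 to 66973998, with a pileup of 46.3, a fold of 6.06 and a −log10 p of 26.4. The peak lay 7773 bp inside the 5′ end of this 10049-bp gene. At the gene's end the Early-B list held a 7168-bp peak with a −log10 p of 92.0, and the −log10 p listed there for progenitors was 18.3, each on its own list's scale. So the internal Shox2 region was listed in progenitors alone, in a gene whose end was marked in both lists.

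Phldb1, which encodes a microtubule-anchoring protein, followed with a pileup of 42.4 and a −log10 p of 21.2 (chromosome 9, 44708206 to 44709138). Dnah8, an axonemal dynein heavy chain of sperm, had 40.6 and 20.3 (chromosome 17, 30657760 to 30658758). Gas7, a cytoskeletal protein of neurons, had 39.2 and 19.2 (chromosome 11, 67454714 to 67456043), 1457 bp from a gene end. The ends of Dnah8 and Gas7 were unmarked in both lists.

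Klhl31, a muscle kelch protein, had a pileup of 36.9 and a −log10 p of 18.2. Sirpb1b, a signal-regulatory receptor gene with close paralogs, had 37.4 and 17.6, in a peak of 323 bp whose nearest Early-B peak was 228075 bp away. Hapln2, a hyaluronan link protein of myelinated axons, had 36.9 and 17.6. The trichohyalin gene Tchh, active in hair follicles, had 35.2 and 17.3. None of these 4 genes had a peak at an end, or an Early-B peak anywhere in the span or the 1 kb around it. Ston2, an adaptor of endocytosis, had 36.0 and 16.4, and Foxf2, a forkhead factor of mesenchyme, had 33.3 and 14.5 with an Early-B peak 2114 bp away.

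In 8 members the pileup was high for the fold. Pileup divided by fold, a rough measure of the caller's background, had a median of 7.47 over members and reached 12 in these 8. Grk5 (pileup 41.6, fold 1.58, ratio 26.3) and Zfp979 (41.7, 1.65 and 25.3) led, followed by Pisd, Atrnl1, Pknox1, Zfp534, Naa25 and Rex2. These 8 were named after their values were seen. Zfp979, Zfp534 and Rex2 lie on chromosome 4 between 147025172 and 147698479, among zinc-finger genes with near-identical copies. Just below the cut of 12, Zfp987 (ratio 11.97) and Zfp600 (11.66) lie on the same chromosome, their members starting at 146101694 and 146160148. The sources used here do not say how reads matching several places were counted, and the values of all these zinc-finger members are uncertain.

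The widest members were not the strongest. The widest, 4169 bp, was in Trat1, an adaptor of the T cell receptor, with a pileup of 21.7. It was followed by Stk10 (3974 bp, 15.1), Acot7 (3897 bp, 20.04), Mad1l1 (3863 bp, 18.3) and Coro1c (3606 bp, 15.2). Trat1 held 3 members over 59657 bp, 6 progenitor peaks in all and 0 Early-B peaks, and neither list had a peak at its ends.

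Members were spread over 871 host genes. A single member was found in 743 genes, 2 in 102, 3 in 19, 4 in 5 and 5 in 2, and 6 members lay in more than 1 gene. The genes with 5 were Ppm1h, a protein phosphatase, and Tiam1, a Rac exchange factor. In Ppm1h the members had pileups of 15.03 to 17.7 over 253850 bp, in a gene with 10 Early-B and 16 progenitor peaks. In Tiam1 they had 15.6 to 17.0 over 306423 bp, in a gene with 5 Early-B and 10 progenitor peaks. The genes with 4 were Gse1 (highest member −log10 p 9.47), Tango6 (5.83), the MAP kinase scaffold Ksr1 (4.99), Btbd9 (4.96) and the tetraspanin Tspan9 (3.98). Gas7, the RNA polymerase III subunit gene Polr3b (9.57) and the E3 ligase gene Peli2 (7.88) led those with 3. Polr3b held 1 Early-B peak against 5 progenitor peaks, and Peli2 held 1 against 4. In all, 801 host genes (92.0%) had an Early-B peak elsewhere in the span or within 1 kb of it. The other 70 (8.04%) had none, and in 56 of them the members were also the only progenitor peaks. The same shares over all coding genes were not counted, and the hosts were longer than coding genes as a whole.

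The host genes were mostly genes already marked at an end in both lists. Of the 871, 604 (69.3%) were marked in both lists by the same 1 kb rule, 39 by the Early-B list alone, 35 by the progenitor list alone and 193 (22.2%) by none. Doubly marked and unmarked genes were 1300 of 2530 (51.4%) and 860 (34.0%) for hosts of Early-B-only peaks, 2006 of 3196 (62.8%) and 829 (25.9%) for hosts of shared progenitor peaks, and 11707 of 21883 (53.5%) and 8405 (38.4%) for all coding genes. With the annotated 5′ end alone, known for 716 hosts, 490 (68.4%) were marked in both lists, against 970 of 1960 (49.5%) for hosts of Early-B-only peaks and 52.3% of all coding genes with a known strand.

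This share was lower among stronger members. It was 585 of 796 members (73.5%, exact binomial 95% interval 70.3 to 76.5%) at a pileup from 15 to below 20, 127 of 210 (60.5%, 53.5 to 67.1%) from 20 to below 30, and 8 of 22 (36.4%, 17.2 to 59.3%) at 30 or more. The remaining 14 of these 22 members lay in genes marked at an end in neither list. The 22 include Grk5, Zfp979, Zfp534 and Zfp987, named above for a high ratio of pileup to fold. Zfp979 and Zfp987 are among the 14. The intervals above count members of the same gene as independent, although these share its state. For Early-B-only peaks the share marked in both lists was 780 of 1560, 679 of 1385 (49.0%) and 586 of 1167 (50.2%). Their classes had the same bounds in their own list. For shared progenitor peaks it was 71.8, 72.2 and 57.9%. The median host length was also lower, at 100357, 86276 and 45917 bp from the weakest class to the strongest. The part of gene length in this order was not tested.

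**Figure D2:**
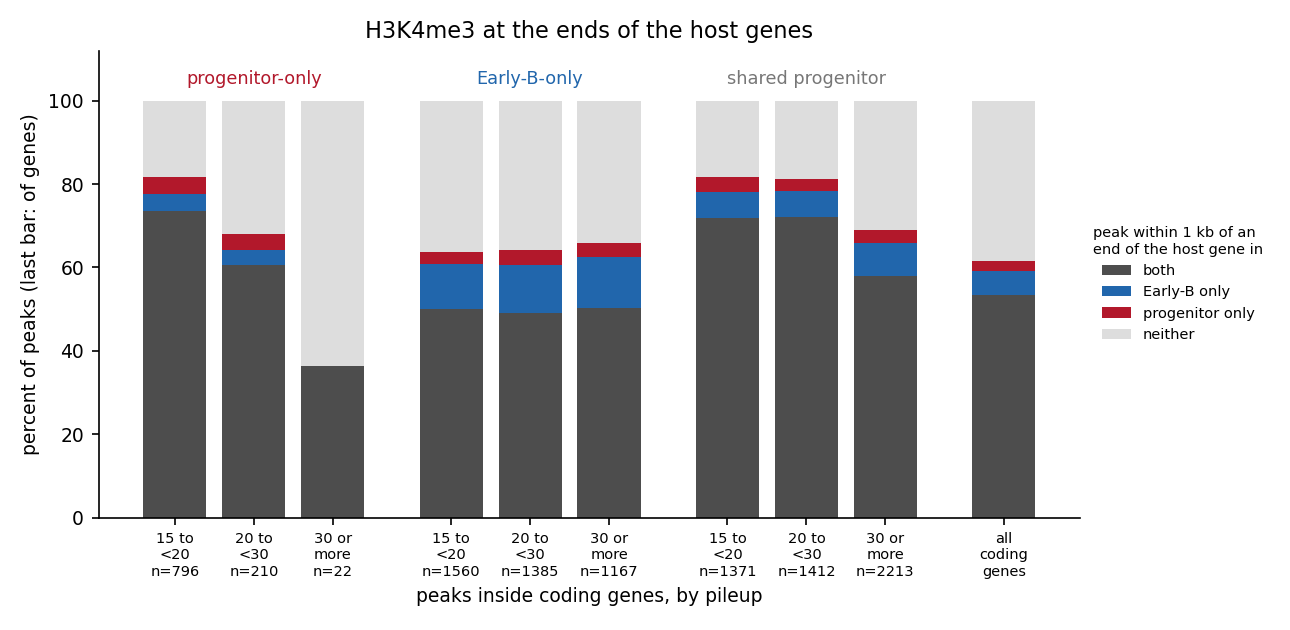
Bars give percentages of the peaks inside coding genes, sorted by which lists mark an end of the host gene (both, Early-B alone, progenitors alone, none) and by pileup class, for progenitor-only, Early-B-only and shared progenitor peaks, with all coding genes last. Among progenitor-only peaks the part marked in both lists is 73.5, 60.5 and 36.4% from the weakest class to the strongest.

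Many members lay in long genes, 504 of them (49.0%) in hosts of 100 kb or more. The median host was 85361 bp long against 17170 bp for all coding genes, and the hosts of Early-B-only peaks had a median of 87805 bp. A member was found in 0.353% of genes under 10 kb, 1.95% of those from 10 to 30 kb, 6.58% from 30 to 100 kb, 15.7% from 100 to 300 kb and 89 of the 556 longer genes. Per Mb of gene span, however, the classes held 0.86, 1.08, 1.33, 1.25 and 0.411 members from the shortest to the longest. The density thus differed far less than the share of genes up to 300 kb, and was highest from 30 to 100 kb. Within that class of 100 to 300 kb, 225 of 1056 genes marked at an end in both lists held a member (21.3%), against 45 of 603 marked in neither (7.46%). For Early-B-only peaks the same shares were 40.5 and 40.3%. The order was not the same at every length. Over 300 kb a member was held by 27.8% of genes marked in both lists and 10.0% of those marked in neither, against 72.2 and 59.5% for Early-B-only peaks. From 30 to 100 kb the shares were 7.26 and 4.98%, against 16.1 and 21.1% for Early-B-only peaks. From 10 to 30 kb they were 2.04 and 1.78% for members, and under 10 kb 0.284 and 0.401%.

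Members lay at a distance from Early-B peaks that varied widely. The nearest Early-B peak was between 29 and 360409 bp away, with a median of 9501 bp. It was within 1 kb for 32 members (3.11%), within 10 kb for 529 (51.5%) and within 50 kb for 937 (91.1%). Of Early-B-only peaks inside coding genes, 0.997% had a progenitor peak within 1 kb, 31.4% within 10 kb and 65.3% within 50 kb. The Early-B list is the longer one, with 48054 peaks against 31414, so the distances depend on list length. In 417 of the 529 (78.8%) the nearby Early-B peak also met a progenitor peak, and in 134 (25.3%) it had a −log10 p of 50 or more. The same shares over the whole Early-B list were not counted, so these values are not read as particular to members. Within the progenitor list 594 members (57.8%) had a neighbour of any kind within 10 kb. For 397 members (38.6%) the nearest neighbour within 10 kb was a peak shared with Early-B. The same share was 44.2% for shared progenitor peaks inside coding genes. It was 22.8% for Early-B-only peaks there, within their own list. No 2 peaks of the progenitor list lay closer than 802 bp in the sets compared, so a member is at least that far from its neighbours in its own list.

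**Figure D3:**
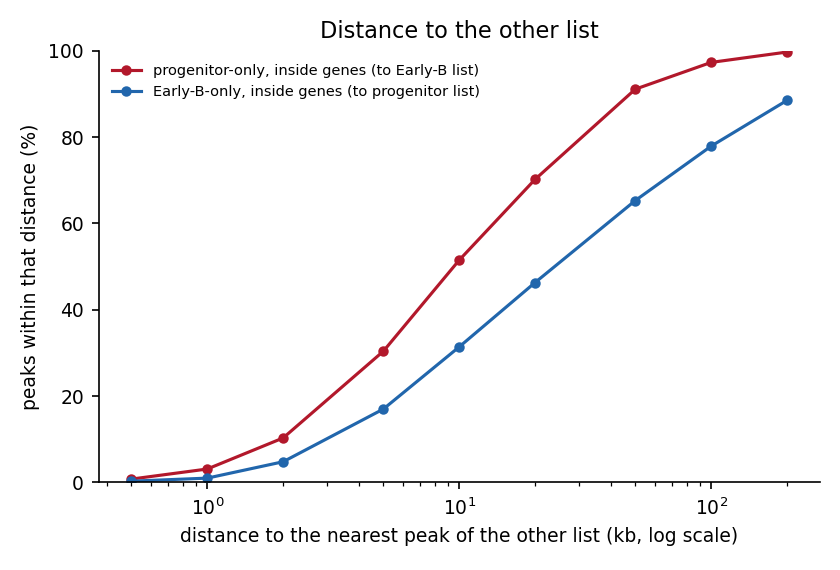
Lines give the percentage of peaks whose nearest peak in the other list lies within the distance on the x axis (kb, log scale), for progenitor-only peaks against the Early-B list and for Early-B-only peaks against the progenitor list. At 10 kb the values are 51.5% and 31.4%.

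Along the host gene the members were spread with a slight excess toward the 5′ side. Strand was known for the hosts of 841 members, and the centre of 462 of them (54.9%) lay in the 5′ side of the span, against 51.9% of Early-B-only and 60.9% of shared progenitor peaks. Cutting each span into 10 equal parts, 8.80% of members lay in the first part and 12.8% in the second, against 7.71 and 10.0% of Early-B-only and 9.70 and 14.1% of shared peaks. The last part held 7.49% of members, 8.64% of Early-B-only and 4.80% of shared peaks. The median member began 30949 bp from the annotated 5′ end, against 49158 bp for Early-B-only and 25578 bp for shared peaks, and 171 members (20.3%) lay within 10 kb of it. The rule removes the first and last 1 kb, which empties much of a short gene.

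**Figure D4:**
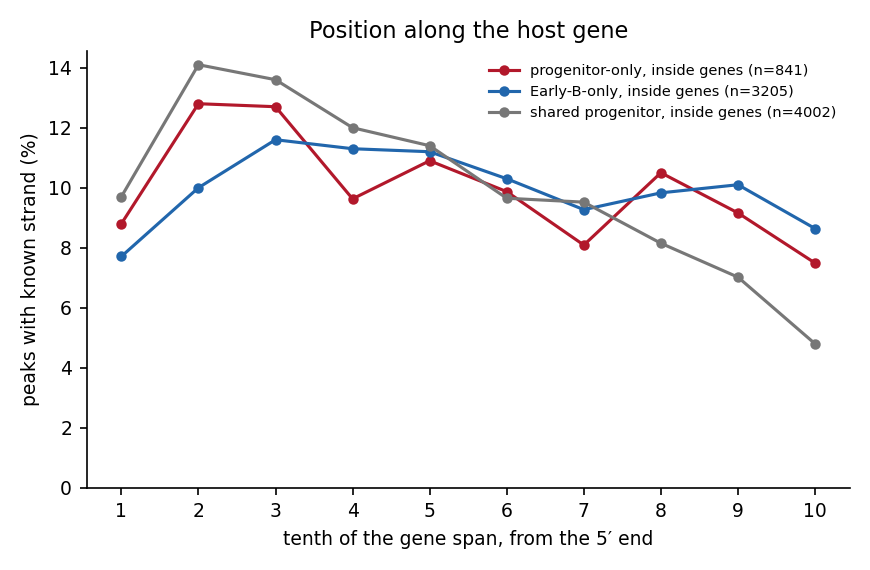
Lines give the percentage of peaks in each of 10 equal parts of the host gene's span, from the 5′ end on the left, for peaks whose host has a known strand. Progenitor-only peaks are most frequent in the second part at 12.8% and reach 7.49% in the last.

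The hosts were also read against 15 lists of lineage regulators, cell type markers and pathways. Over these lists, 36 of 393 distinct genes (9.16%) held a member, against 3.98% of all coding genes, and the listed genes had a median length of 64368 bp. Among genes of 100 kb or more, 24 of 152 listed genes (15.8%) and 383 of 2428 coding genes (15.8%) did. Among shorter genes it was 12 of 241 listed genes (4.98%) and 488 of 19455 coding genes (2.51%). Early-B-only peaks were hosted by 116 of the 393 (29.5%) and by 11.6% of all coding genes.

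Stem and multipotent progenitor genes had 4 hosts of 28 (14.3%), against 3.98% of all coding genes. Their median length was 75742.5 bp, and 3 of the 13 that were 100 kb or longer were hosts. At that length 15.8% of all coding genes were hosts. Zfpm1, the GATA cofactor FOG1, had a member with a pileup of 20.9 and a −log10 p of 5.39, and an Early-B peak with a −log10 p of 1.84 lay 2451 bp away. Etv6, an ETS repressor of stem cells, had 18.2 and 4.36. Runx1, the core-binding factor of blood stem cells, had 2 members with −log10 p values of 2.83 and 2.57. Meis1, a HOX cofactor, had 15.2 and 2.65. All 4 genes had an end peak in both lists, so the mark at their ends was listed in Early-B cells as well.

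Among 36 B-lineage genes only Bcl11a, a zinc-finger factor of lymphoid progenitors, held a member (pileup 16.4, −log10 p 2.97). That is 2.78% of the list, against 3.98% of all coding genes. The B-lineage genes were shorter than the stem genes, with a median of 24512.5 bp. Of the 36, 6 were of 100 kb or more. The part of gene length in these list shares was not tested. An Early-B-only peak was held by 7 B-lineage genes (19.4%), 8 of 28 stem genes (28.6%) and 7 T-lineage and Notch genes (21.9%). Among 32 genes of the T lineage and Notch signalling, members were held by Notch3 (18.5 and 4.25), the costimulatory receptor gene Cd28 (17.3 and 3.57) and Gata3 (15.7 and 2.91). The Gata3 member lay 1732 bp from a progenitor peak with a −log10 p of 108 and 2021 bp from an Early-B peak with 27.8. Icos, a relative of Cd28 that is in none of the lists and was named after its value was seen, had 27.7 and 10.1.

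Itgam (20.7 and 5.66), the integrin CD11b, and Hdc (19.1 and 4.62), histidine decarboxylase of mast cells and basophils, were the 2 hosts of 26 myeloid genes. The Hdc gene was marked at an end by the Early-B list alone (−log10 p 5.43), and the Itgam gene by the progenitor list alone (4.73). Of 16 NK and innate lymphoid genes 2 were hosts, among them Rora (21.2 and 5.10), a nuclear receptor of innate lymphoid cells. Of 17 erythroid and megakaryocyte genes, 23 genes of IL-7, FLT3 and JAK-STAT signalling and 15 housekeeping genes, 0 held a member. Over all coding genes the share was 3.98%, so lists of this size can hold 0 at that share. Their median lengths were 12533, 42428 and 7881 bp.

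Of 38 chromatin regulators 5 were hosts (13.2%), with Dnmt3a, a de novo DNA methyltransferase (19.3 and 4.62), Arid1b (18.9 and 4.16) and Tet3 (15.8 and 3.22) among them. Of the 38, 13 were of 100 kb or more and 4 of those were hosts. At that length 15.8% of all coding genes were hosts, and 3.98% at any length.

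Of 37 adhesion and guidance genes 6 were hosts (16.2%), among them Ephb2 (25.5 and 8.46), Cdh13 (21.8 and 6.44), Slit2 (17.4 and 3.94) and Pcdh9 (17.7 and 3.58). All 37 were of 100 kb or more, a length at which 15.8% of all coding genes were hosts. The voltage-gated calcium channel genes Cacna1c (27.4 and 9.91), Cacna1d (20.2 and 5.11) and Cacna1a (18.3 and 4.21) were the 3 hosts of 33 channel and receptor genes. Runx2, the bone factor (25.2 and 7.50), was the single host of 24 stromal genes. Bid (15.98 and 3.11) was the single host of 20 apoptosis genes, and Ski (15.4 and 2.71) of 20 genes of TGF-beta signalling. Here and in the paragraphs on the lists above, a pair in parentheses after a gene is the pileup and the −log10 p of its strongest member.

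**Figure D5:**
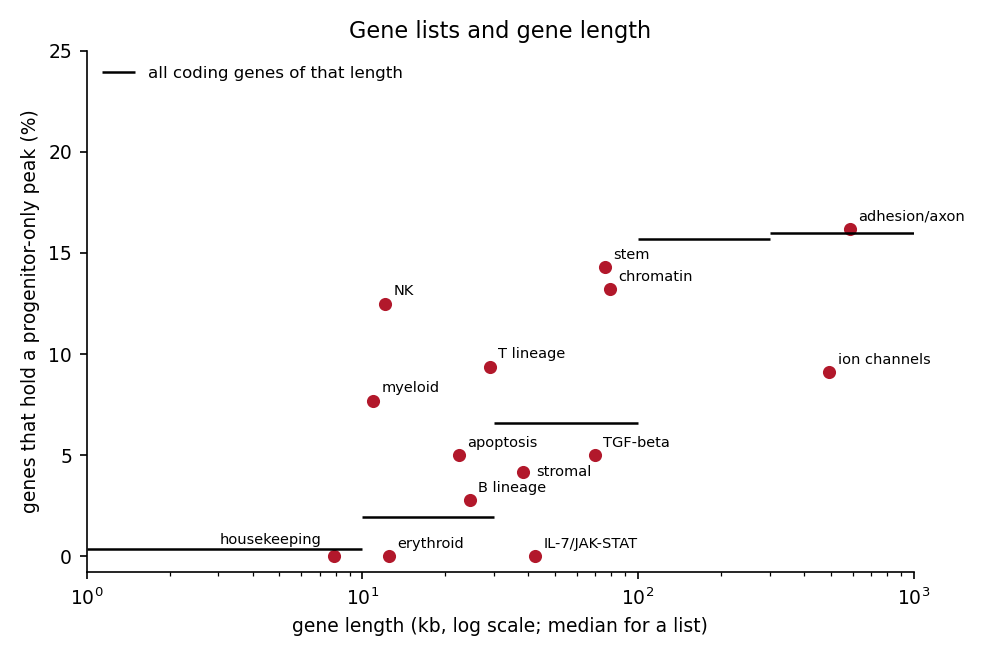
Each point is 1 of 14 gene lists, with the median length of its genes (kb, log scale) on the x axis and the percentage of its genes that hold a progenitor-only peak on the y axis, and horizontal lines give that percentage for all coding genes of a length class. Of those plotted, adhesion and guidance genes are highest at 16.2%, the short NK and innate lymphoid genes are at 12.5% with 2 hosts of 16, and channel genes are at 9.09% although long. All 37 adhesion and guidance genes and all 33 channel genes are 100 kb or longer. Of all coding genes of that length, 15.8% hold a progenitor-only peak.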

How the data were processed

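The authors deposited 1 H3K4me3 peak list for Early-B cells and 1 for Ebf1-null progenitors. The submitters' processing notes name the builds mm10 and GRCh38, the peak caller MACS 1.4.3 and the aligner Bowtie 1.1.2, without a role for each build. The sources used here do not state replicate pooling, use of the input or settings. Per the file headers, the deposited pileup is a signal of coverage and the deposited fold enrichment is a ratio to a background. Headers of the deposited −log10 p and −log10 q columns are damaged and were read from their values and order.

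Coordinates were joined to RefSeq genes of GRCm38.p6, with 21883 protein-coding genes. The build fits: among progenitor peaks of −log10 p 50 or more, 83.9% lay no farther than 1 kb from a coding gene's end, against 17.6% after a shift of 100 kb. Strand, known for 17491 coding genes, and 32851 start windows came from RefSeq promoters, with none on chromosome 18. Exons were not used here. A peak in 2 genes was assigned to the one it covers most, then to the shorter. Software was pandas 2.3.3, numpy 2.4.6, scipy 1.17.1 and matplotlib 3.10.9 under Python 3.11.15, and the selection was tested on simulated peaks.

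The members, the 15 gene lists (398 entries, all matched) and the rules below were chosen with earlier results of these data known. Named were the 10 members with the highest −log10 p, the 5 with the highest pileup, the 5 with the highest fold and the 5 widest, those nearest the pileup minimum, genes with 3 or more members (at most 10), list hosts (at most 4 per list), and members at non-coding starts (at most 10). Some items that these rules name are not reported here. Others were named after their values were seen: members over microRNAs, those with a start of the host gene, Icos and members with a high ratio of pileup to fold. The alternatives tried concern the pileup minimum, the overlap, the distance from gene ends and q.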

Additional observations from a re-analysis of the deposited data

How the results depend on the processing

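The main values were 1028 members in 871 host genes and 36 list genes, 51.5% of members with an Early-B peak within 10 kb, 70.3% in a gene marked at an end in both lists, a median width of 829 bp and a median fold of 2.26. A count moved when it changed by more than 1.5 times, and a share or median when it left the exact binomial 95% interval of its main value. Those intervals count members of the same gene as independent. Without a pileup minimum, or with one of 10, which no peak of the list failed, there were 3876 members, 56.4% near an Early-B peak, 76.5% in genes marked at an end in both lists, a median width of 613 bp, a median fold of 1.77, 2461 host genes and 103 list genes. A pileup minimum of 20 gave 232 members, 58.6% in genes marked at an end in both lists, a median width of 908.5 bp, a median fold of 2.86, 229 host genes and 10 list genes. A pileup minimum of 30 gave 22 members, 36.4% near an Early-B peak, 36.4% in genes marked at an end in both lists, a median width of 892 bp, a median fold of 4.31, 22 host genes and 0 list genes. Asking an overlap to cover at least 50% of the progenitor peak gave 1723 members, 71.0% near an Early-B peak, 73.4% in genes marked at an end in both lists, a median width of 1056 bp, a median fold of 2.43, 1323 host genes and 59 list genes. Counting only Early-B peaks with a pileup of 15 or more gave 2115 members, 43.4% near an Early-B peak, a median width of 1010 bp, a median fold of 2.43, 1563 host genes and 65 list genes. Asking for more than 5 kb from gene ends gave 73.2% in genes marked at an end in both lists. A q of at most 0.05 gave a median width of 874 bp and a median fold of 2.41. A q of at most 0.01 gave 432 members, 63.9% in genes marked at an end in both lists, a median width of 937 bp, a median fold of 2.62, 398 host genes and 18 list genes. An Early-B peak within 1 kb counted as overlapping, 2.5 kb from gene ends and 1 kb from the ends of every annotated gene moved none of the 7 results. The pileup minimum sets which peaks are described, so it changes most values by construction, and the share in genes marked at an end in both lists was lower at each higher minimum. No paired analysis was possible because each group has 1 peak list and the lists carry no replicate numbers. No replicate could be left out for the same reason. Depth is unknown, and a region with no Early-B peak may hold signal below the authors' threshold, whose lowest −log10 p was 1.01.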

Other observations

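Members were unevenly spread over chromosomes. Per Mb of coding gene span, the X chromosome held 0.175 members (8 in all: Clcn5, Dock11, Lonrf3, Elf4, Zc3h12b, Nhsl2, Prps2 and Arhgap6), against 0.719 to 1.45 on the 19 autosomes. Chromosomes 17 and 11 were highest, with 1.45 each. The X share was 0.778% of members, 2.77% of Early-B-only peaks inside coding genes and 1.66% of shared progenitor peaks there. Chromosome 19 held 8.26 Early-B-only peaks per Mb, against at most 4.65 on the others, while its 1.07 members per Mb lay within the range of the other autosomes.

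In 70 host genes there was no Early-B peak in the span or the 1 kb around it. After Klhl31, Sirpb1b, Hapln2 and Tchh, the highest −log10 p values were those of Ccdc177 (13.03), the leukocyte metalloproteinase Mmp25 (12.4), Nlrp6 (10.9), the kidney factor Six2 (10.6), Rnf207 (9.86), Fam184a (9.55) and Eef1a2 (9.24). Of these, Six2 alone also had a progenitor peak that was not a member, and Rnf207 alone held 2 members.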
